A study of Homo sapiens with 31 samples.

Results

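The regions around MYB and MYC were examined in the 13 lists of EVI1 and CTBP2 ChIP-seq peaks. The MYB window ran from 150 kb before to 150 kb past the gene (ENSG00000118513, plus strand, chr6:135502446-135540311, hg19) and covered chr6:135352446-135690311. The MYC window ran from 150 kb before the gene (ENSG00000136997, plus strand, chr8:128747680-128755197) to 2.2 Mb past its end, which includes the distal blood enhancers, and covered chr8:128597680-130955197. Membership rested on position alone: a peak belonged to a window when its summit lay in it. The MYB window held 166 peaks and the MYC window 657, together 823 of the 533140 peaks of all lists. Overlapping peaks of different lists were merged into 38 sites around MYB and 173 around MYC, each named here by the distance of its summit from the start of the gene.

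MYB encodes a DNA-binding factor that keeps blood progenitors dividing and immature. Its known blood enhancers lie upstream, between HBS1L and MYB, and AHI1, a gene for a protein of the primary cilium, lies downstream. MYC encodes the partner of MAX that drives growth and proliferation. Downstream of it lie the long noncoding RNA genes PVT1 and CCDC26, and the CCDC26 region carries enhancers that keep MYC active in blood stem cells and in myeloid leukemia. EVI1 is a zinc finger factor made from the MECOM gene, and CTBP2 is a corepressor without DNA-binding specificity of its own that docks on PLDLS-type motifs of EVI1 and other factors.

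MUTZ3 is a cell line labelled as acute myelomonocytic leukemia, and MOLM1 is labelled as chronic myeloid leukemia in blast crisis. Unmodified (WT) MUTZ3 cells gave 1 EVI1 and 1 CTBP2 library. MUTZ3 cells with the vector pCW-4xPLDLS, a bulk population in which doxycycline (dox) turns on a peptide of 4 PLDLS-containing repeats that occupies CTBP2, gave 2 EVI1 and 2 CTBP2 libraries without dox (untreated) and the same number with dox, all at 72 hours. MUTZ3 cells with the retroviral vector p50MX-3xFLAG-3xNLS-4xPLASS-Zeo, whose peptide carries the mutated PLASS motif, gave 2 CTBP2 libraries. The MOLM1 CTBP2 library came from a single clone that carries a dox-inducible shRNA against EVI1 and received no dox. The labels do not say whether the 2 libraries of a group came from separate cultures, so p-values measure only the spread between libraries. Peak lists hold no expression values, so the identity of the cells could not be checked against marker genes.

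The lists held 6688 to 72214 peaks (median 47599). Read depth is unknown, since no file used here gives read counts. Strength is the fold enrichment of a peak over its input at the summit, which was not normalised between libraries. In ChIP from many cells, a site bound in fewer cells and a site bound more weakly in each cell cannot be told apart. Some libraries resembled each other across factors. Over the 13268 genome-wide sites called in all 8 inducible libraries, fold enrichments of EVI1 untreated 2 correlated more closely with CTBP2 untreated 1 (Spearman rho 0.72) than those of the CTBP2 untreated replicates did with each other (rho 0.62), and EVI1 untreated 1 correlated with CTBP2 untreated 2 at rho 0.65. The EVI1 untreated replicates were closer still to each other (rho 0.77). Libraries are named by their labels, and whether any were exchanged was not tested. These are descriptions across sites that share libraries and inputs, and results that rest on these libraries are given below with and without them.

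**Figure D1:**
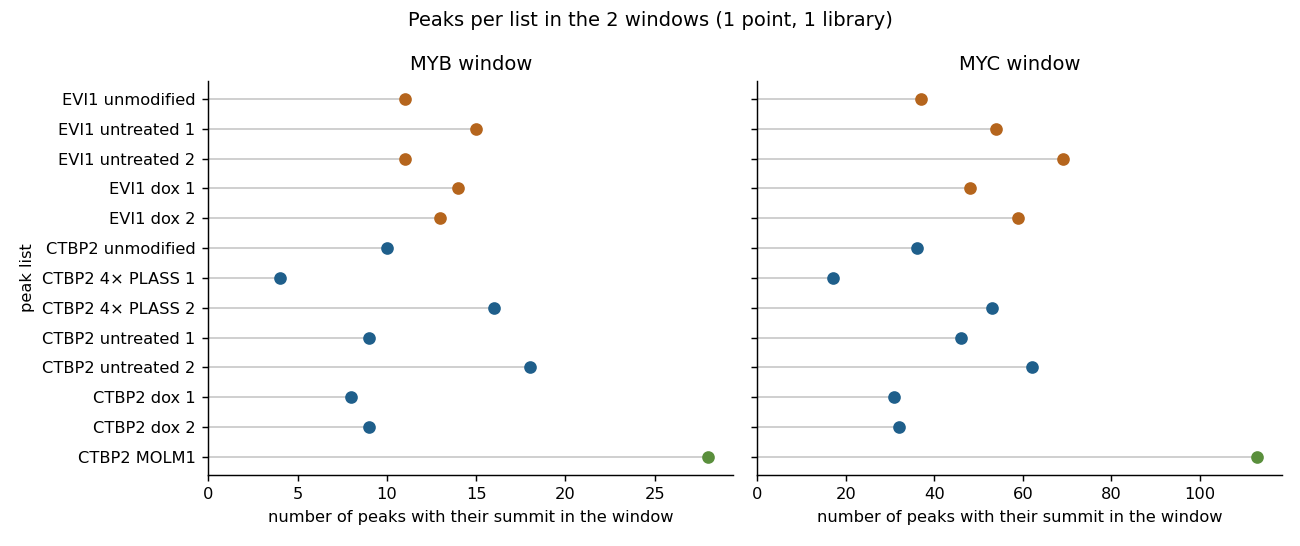
Number of peaks with their summit in the MYB window (left) and the MYC window (right), 1 point for each of the 13 libraries, with EVI1 in brown, CTBP2 of MUTZ3 in blue and CTBP2 of MOLM1 in green. MOLM1 has the most peaks in both, 28 and 113, and the CTBP2 dox libraries have 8 and 9 around MYB and 31 and 32 around MYC.

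In most lists, the MYB window and the 150 kb around MYC carried more peaks than most genes. The MYB window held 4 to 28 peaks per list (median 11), and its peak density was above that of a median of 70.8% of 20090 protein-coding genes with windows of the same reach (range 42.8 to 93.5% over the lists). The MYC window held 17 to 113 peaks (median 48), and within 150 kb of the gene its density was above a median of 69.0% of genes (49.8 to 96.6%). Over the whole MYC window the median density was 2.04 peaks per 100 kb, against 4.23 within 150 kb of the gene. It was below that of the median gene in some lists, as in CTBP2 untreated 1 (1.95 against 3.47). In others it was above, as in MOLM1 (4.79 against 3.65). The sites were of ordinary strength as a group: median fold enrichments were 4.79 to 8.55 in the MYB window and 4.93 to 6.80 in the MYC window, against 4.84 to 6.66 over whole lists. A few were among the strongest of their list. Ranked by fold enrichment, the best peak of the MYB window stood in the top 0.142 to 7.97% (median 1.15%) and that of the MYC window in the top 0.101 to 2.41% (median 0.730%).

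The sites of the windows differed in how many lists called them. The same counts over the genome are not given here, so they describe the windows and do not set them apart from other regions. Around MYB, 21 of 38 sites appeared in 1 list, 7 in 9 or more lists and 2 in all 13. Around MYC, 89 of 173 sites appeared in 1 list, 26 in 9 or more and 6 in all 13. With fold enrichment of at least 5 required, 25 MYB and 111 MYC sites remained. EVI1 and MUTZ3 CTBP2 were both called, in some list, at 12 MYB and 56 MYC sites. EVI1 without MUTZ3 CTBP2 was called at 7 and 35 sites, and MUTZ3 CTBP2 without EVI1 at 10 and 31. Of the MYB sites, 17 were intergenic, 17 intronic and 4 exonic. Of the MYC sites, 131 lay in introns, nearly all of noncoding genes, since 12 of the 173 lay in a protein-coding gene.

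**Figure D2:**
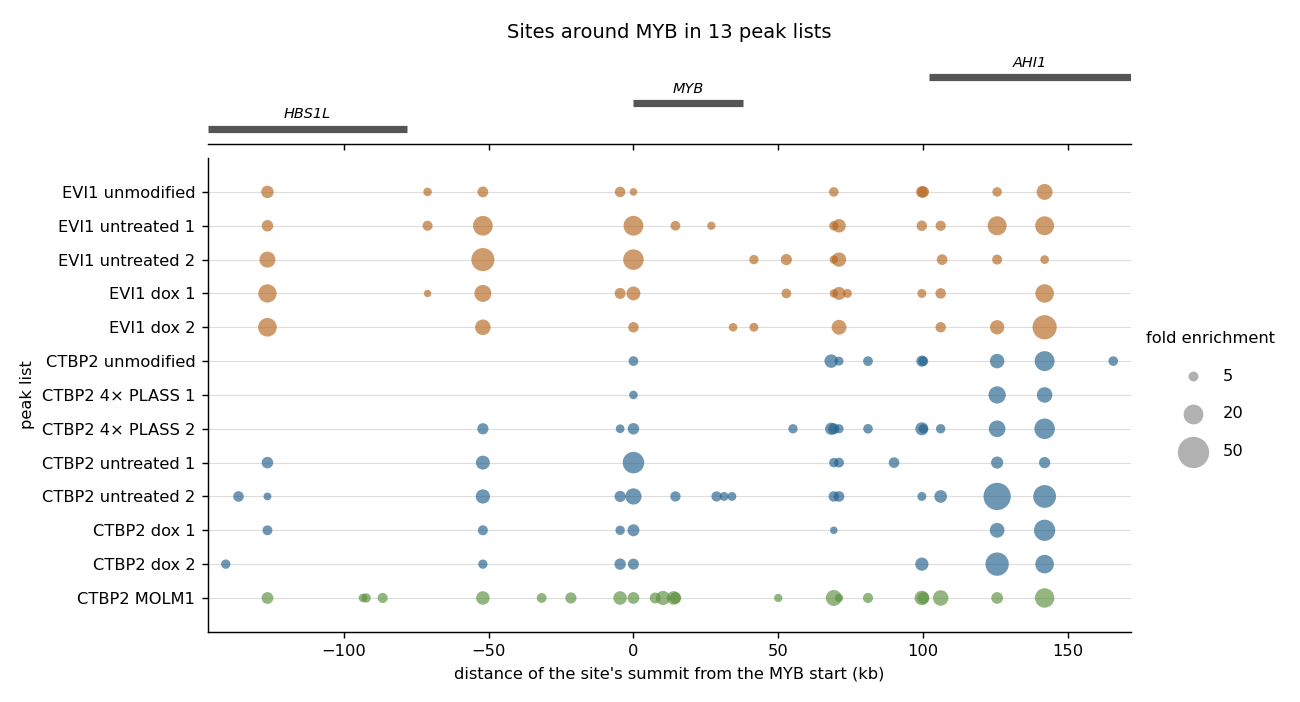
Map of the sites around MYB, by distance of the summit from the MYB start (kb, horizontal axis) in each of the 13 peak lists (vertical axis), with point area in proportion to fold enrichment and gene bodies drawn above. The columns of points shared by most lists lie 126.4 and 52.0 kb upstream, at the start of MYB, and 125.6 and 142.0 kb downstream within AHI1.

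The start of MYB was occupied by both factors in every list (merged site chr6:135501411-135505333). EVI1 fold enrichment there was 2.99 in unmodified cells, 20.0 and 21.5 in untreated inducible cells and 9.89 and 5.62 with dox. CTBP2 was 4.84 in unmodified cells, 3.77 and 6.76 in 4× PLASS cells and 7.16 in MOLM1. The 2 untreated inducible CTBP2 libraries, at 23.6 and 13.5, were the highest of the CTBP2 libraries. With dox the peak at the start itself stood at 4.01 and 4.69, a difference of -2.10 on the log2 scale with no overlap between the groups. This was the greatest drop of the 5 MYB sites called in all 4 libraries. An adjoining CTBP2 site 1.9 kb downstream, inside the gene, read 8.49 and 5.35 untreated and 7.33 and 6.18 with dox, and there the groups overlapped.

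Upstream of MYB, an intergenic site 52.0 kb before the start (chr6:135450202-135450804) was in 11 lists. Its EVI1 fold enrichment was 6.01 in unmodified cells, 19.8 and 27.3 untreated, and 14.8 and 12.4 with dox. CTBP2 read 9.97 and 10.4 untreated, 5.07 and 4.40 with dox, 6.42 in 4× PLASS replicate 2 and 9.34 in MOLM1, with no peak in unmodified cells or 4× PLASS replicate 1. Both factors were lower in both dox libraries, CTBP2 by -1.11 and EVI1 by -0.79 (log2). A site 126.4 kb upstream, in an exon of HBS1L (chr6:135375649-135376634), went the other way for EVI1, from 6.76 and 13.1 untreated to 17.1 and 17.8 with dox. This site lay within 1 kb of an annotated HBS1L transcript start and is also counted below as a promoter site of that gene. CTBP2 there was 6.79 and 3.19 untreated, had a peak of 5.02 in dox 1 and had none in dox 2.

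Downstream, the site 71.0 kb past the start (chr6:135573109-135573746, intergenic) was the only CTBP2 site of the MYB window that was called in both untreated libraries and in neither dox library. It was weak for CTBP2 before dox, at 4.96 and 5.83, while EVI1 was called in all 4 inducible libraries at 9.33 and 10.5 untreated and 8.61 and 11.2 with dox, with a log2 difference of -0.00. MOLM1 had a peak of 3.50 there.

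Inside AHI1 lay a pair of CTBP2 sites with high values in dox. The site 125.6 kb downstream (AHI1 intron, chr6:135627627-135628330) had CTBP2 at 7.55 and 38.0 untreated, 11.1 and 27.8 with dox, 15.3 and 14.2 in 4× PLASS cells, 10.7 in unmodified cells and 7.06 in MOLM1. Its peak ranked 80 of 56526 in CTBP2 untreated 2 and 37 of 23878 in CTBP2 dox 2. The site 142.0 kb downstream (AHI1 exon, chr6:135643822-135644738) was in all 13 lists, with CTBP2 at 6.51 and 26.6 untreated and 23.1 and 17.7 with dox. It lay within 1 kb of an annotated AHI1 transcript start. EVI1 at that site was 12.9 in unmodified cells, 18.3 and 3.90 untreated and 17.6 and 30.0 with dox. At these sites CTBP2 untreated 1 and EVI1 untreated 2 were both low and their replicates both high as in the crossed likeness over the genome, and the untreated CTBP2 values spanned the dox values at both.

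Sequences of 3 of the named MYB sites that lie outside annotated UTRs are shown because they cover the fates seen with dox. They run from 100 bp before to 100 bp after the site's summit on the plus strand of hg19 (GRCh37). Capitals mark exact matches, on either strand, to AGGAAG (the core of ETS factors) or TGTGGT (the core of RUNX factors). The first, at chr6:135450345-135450545, was kept but lower for both factors. The next, at chr6:135573363-135573563, kept EVI1 and had no CTBP2 peak with dox. The last, at chr6:135627942-135628142, kept a strong CTBP2 peak with dox.
MYB 52.0 kb upstream: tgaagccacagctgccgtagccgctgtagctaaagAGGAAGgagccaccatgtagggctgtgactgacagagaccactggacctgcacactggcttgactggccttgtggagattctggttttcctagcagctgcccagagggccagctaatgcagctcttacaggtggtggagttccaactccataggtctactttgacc
MYB 71.0 kb downstream: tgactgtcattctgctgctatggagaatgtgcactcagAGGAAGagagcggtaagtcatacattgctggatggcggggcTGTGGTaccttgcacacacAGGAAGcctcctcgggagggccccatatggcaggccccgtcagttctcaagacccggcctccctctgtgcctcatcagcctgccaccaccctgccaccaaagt
MYB 125.6 kb downstream: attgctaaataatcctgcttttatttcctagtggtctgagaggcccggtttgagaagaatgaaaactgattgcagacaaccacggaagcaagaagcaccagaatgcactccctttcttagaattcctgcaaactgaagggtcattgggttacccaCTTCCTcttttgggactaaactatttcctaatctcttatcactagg

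None of the 3 holds ACAAGATAA or GAAGATGAG, the motif cores taken for the first and the second zinc finger domain of EVI1, and over all 38 MYB sites neither string occurred. Around MYC each occurred at 1 of 173 sites. Of the 37227 CTBP2 sites of untreated inducible cells in the genome, 0.113% held the first and 0.416% the second in windows of the same length. AGGAAG was present at 17 of 38 MYB sites (44.7%) and 80 of 173 MYC sites (46.2%), against 44.7% of the genome's CTBP2 sites. AGATAA, the core of GATA factors, which is also part of ACAAGATAA, was at 11 MYB sites (28.9%) and 18 MYC sites (10.4%), against 6.17%. TGTGGT was at 14 MYB sites (36.8%) and 28 MYC sites (16.2%), against 18.5%. At the 7 MYB and 26 MYC sites called in 9 or more lists, AGGAAG was at 4 (57.1%) and 17 (65.4%). AGATAA was at 1 and 3 of these, and TGTGGT at 2 and 6. Of the genome's CTBP2 sites called in both untreated and both dox libraries, AGGAAG was at 50.8% of those lower with dox and 52.4% of the rest.

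TGANTCA, bound by AP-1, was at 4 MYB sites (10.5%) and 27 MYC sites (15.6%), against 6.45%. CACGTG, the E-box bound by MYC with MAX, was at 0 MYB sites and 3 MYC sites (1.73%), against 4.51%, and CAGTTA, bound by MYB, at 2 and 12 sites (5.26 and 6.94%), against 4.56%. The CTCF core motif, added after the values of the sites were seen, was at 0 MYB and 2 MYC sites (1.16%), against 2.57%. All motifs were searched on both strands. The sites of the loci include peaks of any list, whereas the genome's share is of CTBP2 sites alone, so these shares are descriptions. A match does not show binding, and its absence from such a window says nothing about the factor.

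**Figure D3:**
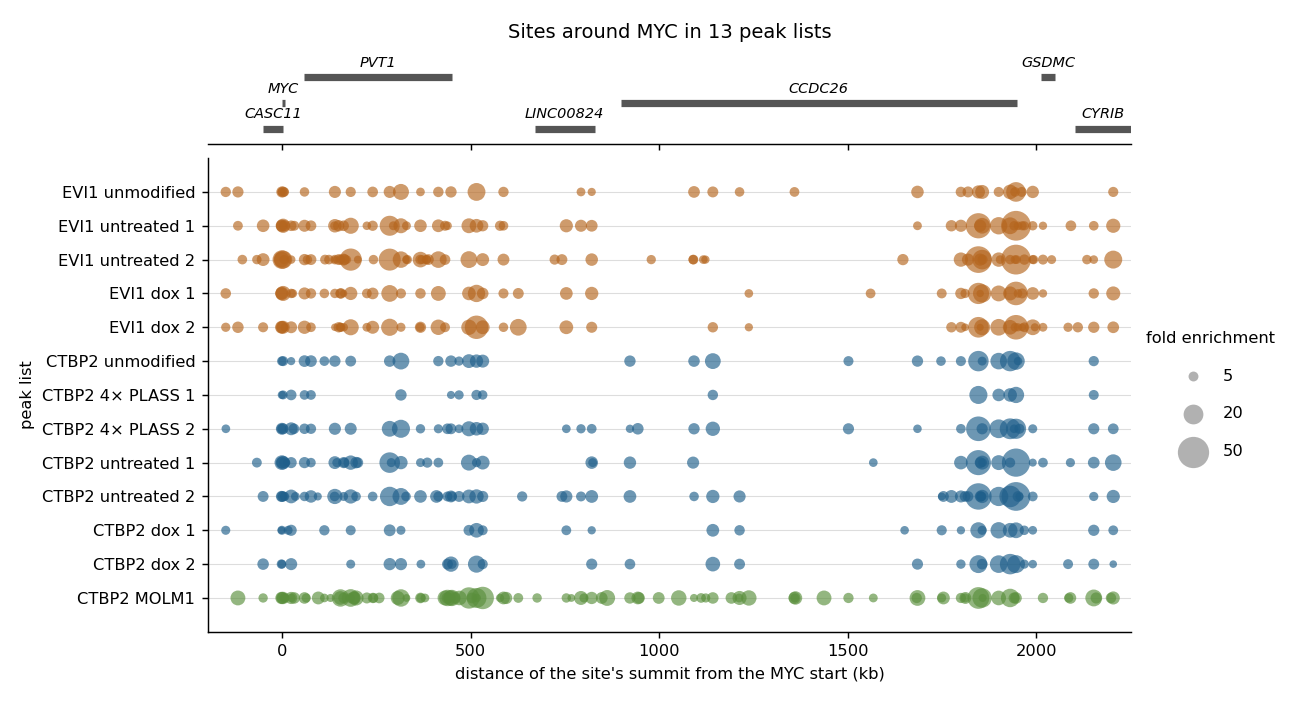
Map of the sites around MYC, by distance of the summit from the MYC start (kb, horizontal axis) in each of the 13 peak lists (vertical axis), with point area in proportion to fold enrichment and gene bodies drawn above. Sites crowd over MYC and PVT1 and again near 1846.9 to 1946.6 kb in CCDC26, and MOLM1 fills much of the stretch between them.

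The MYC promoter was also occupied by both factors in every list (chr8:128746923-128748915). EVI1 read 6.30 in unmodified cells, 7.88 and 17.7 untreated and 9.19 and 7.62 with dox, so its groups overlapped. CTBP2 read 11.0 and 5.61 untreated and 4.21 and 3.74 with dox, a log2 difference of -1.07 without overlap, and 4.69 in unmodified cells, 3.51 and 7.32 in 4× PLASS cells and 6.83 in MOLM1. A site inside the gene 3.1 kb downstream (chr8:128748987-128751461) was in 11 lists. CTBP2 there was 9.17 and 5.54 untreated with no peak in either dox library, while EVI1 stayed called at 10.4 and 16.7 untreated and 11.6 and 8.71 with dox. The summits of CTBP2 and EVI1 lay 636 to 707 bp apart in this site, so their peaks overlapped without sharing a summit.

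PVT1, whose transcript starts 59.1 kb past the MYC start, held 57 of the 173 sites, the most of any segment of the window. Counted as merged sites, it had 10 with CTBP2 in both untreated libraries, of which 3 were in both dox libraries and 7 in neither. Over the genome, 38.4% of CTBP2 sites were in both dox libraries and 41.0% in neither. Of the 13 EVI1 sites of PVT1, 8 were in both dox libraries, 3 in 1 and 2 in neither. For EVI1 the genome's shares were 78.1% in both and 9.01% in neither. The 7 CTBP2 sites without a dox peak were weak to moderate before dox. The strongest of them, 140.3 kb downstream (chr8:128887769-128888507), read 8.45 and 11.9, and its EVI1 peak read 9.31 and 4.67 untreated and 4.54 and 2.92 with dox. Another, 196.5 kb downstream (chr8:128943857-128944411), read 6.76 and 4.72, had no EVI1 peak in any list and had a MOLM1 peak of 11.6.

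In untreated replicate 1, the 3 PVT1 sites that kept CTBP2, at 9.12 or more, all stood above the 7 others, at 8.45 or less. In untreated replicate 2 they overlapped, since the site at 182.3 kb (10.4) stood below that at 140.3 kb (11.9). At 285.7 kb CTBP2 read 21.6 and 19.3 untreated and 7.18 and 7.72 with dox (log2 -1.46), and EVI1 20.5 and 24.8 against 14.4 and 15.1. At 182.3 kb, within 1 kb of an annotated PVT1 transcript start, CTBP2 read 10.6 and 10.4 against 5.07 and 4.11. EVI1 read 13.3 and 25.2 there against 8.98 and 13.2. The site 315.5 kb downstream (chr8:129060712-129063565) was in all 13 lists, with CTBP2 at 9.12 and 14.6 against 4.16 and 7.63 and EVI1 at 11.5 and 13.9 against 5.17 and 4.24. The merged interval also held a separate CTBP2 site at 313.8 kb, at 5.24 and 7.13 untreated, which had no peak in either dox library and is counted among the 10 lost MYC sites below. Both factors were thus called at these sites throughout, with CTBP2 lower in both dox libraries at each and EVI1 too. At 285.7 kb MOLM1 had no peak.

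The distal CCDC26 region, 1.5 to 2 Mb past the MYC start, had 8 CTBP2 sites, of which 7 were in both dox libraries and 1 in neither. The genome's shares were 38.4% in both and 41.0% in neither. The difference between this region and PVT1 was not tested, and untreated strength was not held equal between them. The region contained the strongest MUTZ3 peaks of the window. The site 1946.6 kb downstream (chr8:130693813-130694974), in a CCDC26 exon near the start of that gene, had EVI1 at 19.7 in unmodified cells, 45.3 and 45.5 untreated and 28.4 and 30.9 with dox. CTBP2 was 15.6 in unmodified cells, 13.6 and 20.9 in 4× PLASS cells, 40.7 and 42.2 untreated, 12.7 and 16.5 with dox and 6.94 in MOLM1. The 2 untreated values stood in the top 0.227 and 0.101% of their lists, and the dox values in the top 1.97 and 1.38%.

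At 1846.9 kb (CCDC26 intron, chr8:130593753-130595664), CTBP2 read 21.4 in unmodified cells, 16.7 and 31.0 in 4× PLASS cells, 32.2 and 35.7 untreated, 13.3 and 16.4 with dox and 24.1 in MOLM1. EVI1 read 8.85 in unmodified cells, 32.5 and 36.3 untreated and 23.1 and 21.8 with dox. The log2 difference was -1.19 for CTBP2 and -0.62 for EVI1, with the dox values of both below the untreated ones. In rank, the site went from the top 0.625 and 0.189% of CTBP2 peaks untreated to the top 1.65 and 1.42% with dox.

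A pair of weaker CCDC26 intron sites was also lower in both dox libraries, at 9.50 and 7.44 against 3.50 and 4.46 for the CTBP2 site at 1800.4 kb (log2 -1.09) and at 9.93 and 9.10 against 4.28 and 5.78 for that at 1856.8 kb (log2 -0.92). The CTBP2 groups overlapped at the next sites. At 1900.7 kb (chr8:130648107-130648833) CTBP2 was 11.4 and 19.0 untreated and 13.7 and 15.9 with dox (log2 -0.04), and at 1931.1 kb (chr8:130678124-130679257) it was 5.22 and 23.8 against 11.1 and 21.5 (log2 0.17). EVI1 at these sites was 15.4 and 10.6 against 12.9 and 14.2, and 14.5 and 4.61 against 10.1 and 11.0. As at the AHI1 sites, CTBP2 untreated 1 and EVI1 untreated 2 were the low libraries at both. The site 515.9 kb downstream was the only CTBP2 site of either window higher in both dox libraries, at 4.26 and 10.5 untreated and 11.0 and 15.0 with dox, and it too had CTBP2 untreated 1 as its lowest CTBP2 value, while EVI1 untreated 2 had no peak there.

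**Figure D4:**
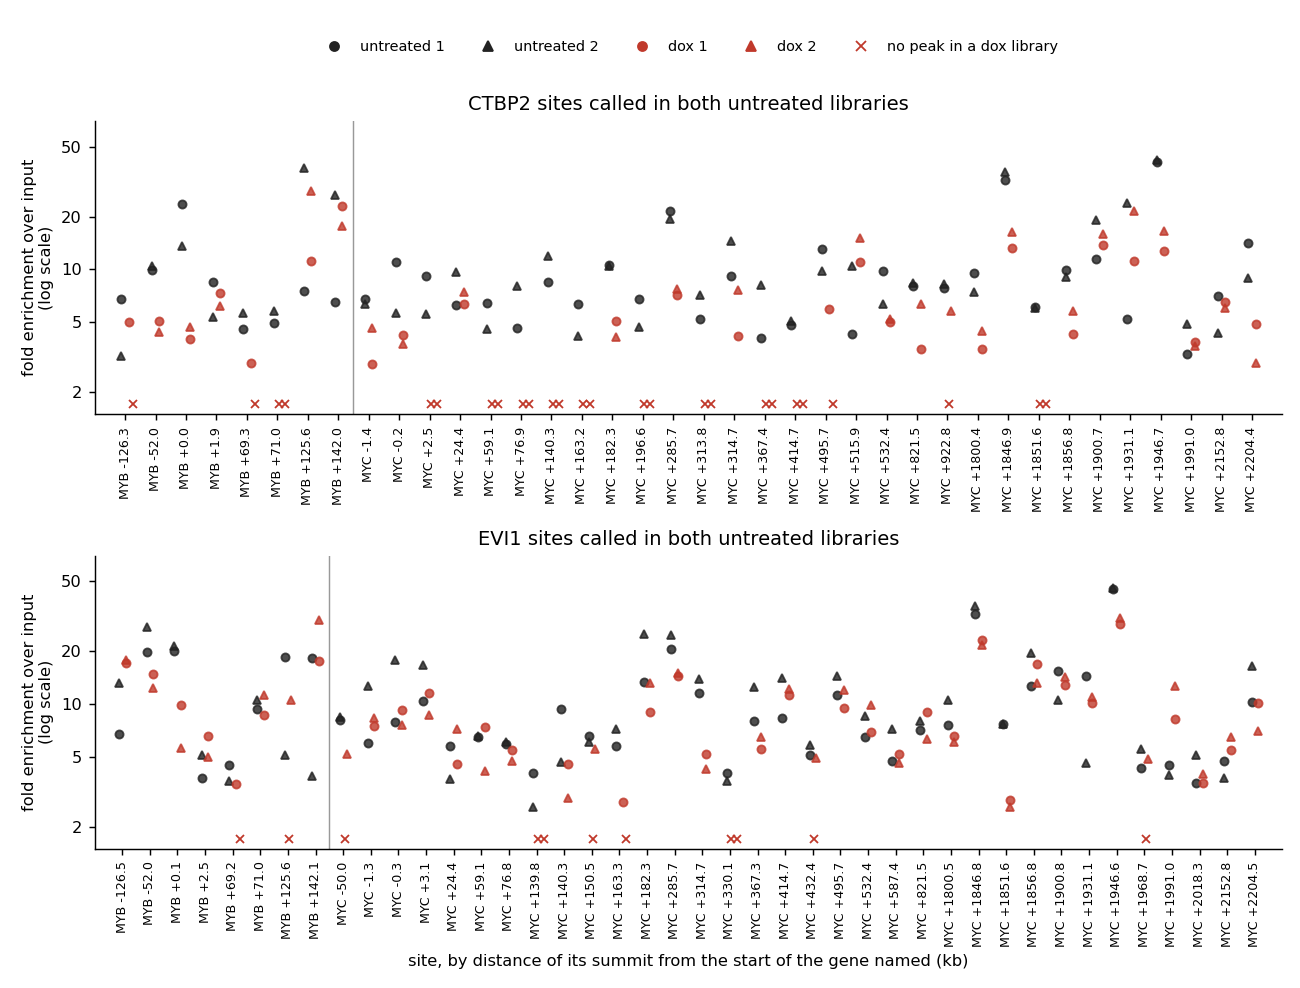
Fold enrichment over input (log scale) of each CTBP2 site (upper panel, 8 MYB and 30 MYC sites) and EVI1 site (lower panel, 8 and 34) called in both untreated libraries, in the 2 untreated (black) and 2 dox (red) libraries. Crosses mark a dox library without a peak and are placed at the base of the axis with no value. CTBP2 had no peak in either dox library at 1 MYB and 10 MYC sites, and EVI1 at 0 and 2.

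Dox induction of 4× PLDLS was compared with untreated cells to see how CTBP2 and EVI1 occupancy at these loci changed when CTBP2 was engaged by the peptide. The number of CTBP2 peaks around MYC was 46 and 62 untreated and 31 and 32 with dox, or 54.0 ± 11.3 and 31.5 ± 0.707 (SD, n = 2 each), a log2 ratio of -0.78. The groups did not overlap. An exact permutation of the library labels (two-sided) returned p = 0.333, and 2 libraries against 2 cannot go lower. Around MYB the CTBP2 peaks numbered 9 and 18 untreated and 8 and 9 with dox, 13.5 ± 6.36 and 8.50 ± 0.707, a log2 ratio of -0.67 (exact permutation p = 0.667). Without CTBP2 untreated 2 the ratio for MYB was -0.08, so that value rests on 1 library.

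EVI1 peak numbers differed by less in these libraries. Around MYC they were 54 and 69 untreated and 48 and 59 with dox (61.5 ± 10.6 and 53.5 ± 7.78, SD, n = 2 each, log2 -0.20, exact permutation p = 0.667). Around MYB they were 15 and 11 against 14 and 13 (13 ± 2.83 and 13.5 ± 0.707, log2 0.05, exact permutation p = 1.00). Leaving out 1 library at a time moved the latter ratio between -0.15 and 0.30. The difference between CTBP2 and EVI1 in log2 ratio was -0.58 around MYC and -0.72 around MYB, and an exact permutation of treatment within each factor gave p = 0.389 for each, where 0.0556 was the smallest possible. Adjusted over these 6 comparisons by Benjamini-Hochberg, the lowest p was 0.778 (exact permutation tests), so no difference in peak number passed a threshold.

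The lists themselves shortened. Over the genome the CTBP2 log2 ratio was -1.29, from 62232 and 56526 peaks to 24588 and 23878, and the EVI1 ratio was -0.29. As a share of its list, CTBP2 around MYC was 0.0739 and 0.110% untreated and 0.126 and 0.134% with dox. Around MYB the shares were 0.0145 and 0.0318% untreated and 0.0325 and 0.0377% with dox. With the lists compared cut to equal size, strongest peaks first, the CTBP2 log2 ratios turned to 0.28 around MYC and 0.39 around MYB, the EVI1 ratio around MYC to 0.13, and the CTBP2 to EVI1 differences to 0.28 and 0.26. The decrease in CTBP2 peak number at both loci was smaller in log2 ratio than that of the whole list, a difference that was not tested, and its direction depends on whether list length is held fixed. The part that read depth played in the list lengths was not tested.

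Followed site by site, most CTBP2 sites of both loci were still called with dox. Around MYC, 30 CTBP2 sites were in both untreated libraries, and 63.3% ± 0 of them (SD, n = 2 dox libraries) had a dox peak: 18 in both libraries, 2 in 1 and 10 in neither. The lost share was 33.3% (95% Wilson interval 19.2 to 51.2%, for counting error only), against 41.0% of all CTBP2 sites of the genome. Around MYB, 75.0% ± 17.7 of 8 sites were kept, 1 of them (12.5%, 2.24 to 47.1%) was lost, and 5 were in both dox libraries. Kept shares over the genome were 48.7% ± 3.03. Both intervals for the lost share include the genome's value.

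The loss lay among weak sites, as most of it did over the genome. When the genome's CTBP2 sites were divided into 5 equal bins by untreated strength, 11 MYC sites fell in the 2 strongest bins, of which 10 were in both dox libraries and 0 in neither, while the 3 weaker bins held all 10 lost sites among 19. Over the genome, 2523 of 14891 sites of the 2 strongest bins and 12750 of 22336 of the 3 weaker bins were lost. The 10 lost MYC sites mostly kept EVI1, with an EVI1 peak at 9 in dox 1 and at 8 in dox 2, against 67.6 and 57.5% of lost CTBP2 sites of the genome. The 1 lost MYB site had EVI1 in both.

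Among sites called in all 4 libraries, CTBP2 strength was lower with dox, meaning that both untreated values exceeded both dox values, at 12 of 18 MYC sites (66.7%) and 2 of 5 MYB sites (40.0%), against 72.5% over the genome. It was higher in both dox libraries at 1 MYC and 0 MYB sites, against 1.96%. The median log2 difference was -0.86 around MYC, -0.23 around MYB and -0.88 over the genome. The MYC sites thus lay near the genome's median, and the 5 MYB sites, with the AHI1 pair among them, are too few to set apart from it. Leaving out CTBP2 untreated 1, the share lower was 81.0% around MYC (17 of 21) and 66.7% around MYB (4 of 6). Only 1 untreated value then has to exceed both dox values, a looser rule on other sites. The genome's share under it is not given here, so these shares cannot be set against 72.5%.

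EVI1 sites were kept at 86.8% ± 6.24 of 34 around MYC and 87.5% ± 0 of 8 around MYB (SD, n = 2 dox libraries), against 84.5% ± 5.20 over the genome. With lists cut to equal size within each factor, at 47599 peaks for EVI1 and 23878 for CTBP2, the kept shares around MYB were 92.9% and 100%. Around MYC they were 90.0% and 91.2%. List length still differed between the factors, so these shares do not set the factors against each other at equal length. The difference between the factors was not tested. Around MYC 2 were lost (5.88%, 1.63 to 19.1%) and around MYB 0 of 8, which allows a share of up to 32.4% by the Wilson interval, against 9.01% over the genome. EVI1 strength was lower with dox at 11 of 27 MYC sites (40.7%) and 2 of 6 MYB sites (33.3%), against 35.3%, and higher at 2 and 1, against 13.4%. The MYB site was that in the HBS1L exon, and the MYC sites lay 1991.0 kb downstream, at 4.47 and 3.94 untreated and 8.17 and 12.7 with dox, and 2152.8 kb downstream, at 4.75 and 3.79 against 5.50 and 6.52. The median log2 difference was -0.26 around MYC and 0.18 around MYB, against -0.25.

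These shares depend on the libraries that define the sites. The genome's shares under the definitions that follow are not given here, so the values cannot be set against the genome's shares above. When sites of either untreated library were counted, the kept share of CTBP2 was 33.3% around MYC and 44.4% around MYB, and that of EVI1 around MYC 47.7%. Without CTBP2 untreated 1, when every peak of the other library counts as a site, the kept share of CTBP2 was 40.3% around MYC and 44.4% around MYB. Without CTBP2 untreated 2 it was 42.4% around MYC. Without EVI1 untreated 1, the kept share of EVI1 around MYC was 47.1%, and the share lower with dox 69.0%, which was 61.3% without EVI1 dox 1. Without EVI1 dox 2 the share of EVI1 sites lower around MYB was 57.1%. With 1 library left out, the rule for lower compares fewer values on other sites, and so asks less.

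EVI1 and CTBP2 were called together at nearly every CTBP2 site of untreated inducible cells: at 8 of 8 around MYB (100%, 67.6 to 100%) and 27 of 30 around MYC (90.0%, 74.4 to 96.5%), against 82.5% over the genome. In the other direction, 8 of 8 MYB and 26 of 34 MYC EVI1 sites (76.5%, 60.0 to 87.6%) had CTBP2, against 75.9%. The summits mostly lay close together, with a median distance of 68.0 bp over 7 MYB sites and 39.0 bp over 26 MYC sites, 16 of which were within 50 bp. The widest median distances were 672 bp at the MYC site at 3.1 kb and 572 bp at that at 59.7 kb. In unmodified cells the share was lower, 4 of 10 CTBP2 peaks around MYB (40.0%, 16.8 to 68.7%) and 20 of 36 around MYC (55.6%, 39.6 to 70.5%), against 54.5%. There CTBP2 was assayed with a single crosslink and EVI1 with a double one. Every peak of 1 library per factor was counted there, rather than sites called in both libraries, so crosslink and site definition cannot be told apart. The intervals of these shares all include the genome's share. Without CTBP2 untreated 1 the shares of CTBP2 sites with EVI1 in inducible cells were 55.6% around MYB and 48.4% around MYC, and with sites of either untreated library 66.7% around MYB. The genome's shares under these definitions are not given here.

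EVI1 was also called at sites where no MUTZ3 or MOLM1 CTBP2 peak was. The strongest around MYB lay 52.8 kb downstream (chr6:135555057-135555491) with 6.41 in EVI1 untreated 2 and 4.89 in EVI1 dox 1, and the strongest around MYC lay 150.5 kb downstream in a PVT1 intron (chr8:128898088-128898380) with 6.60 and 6.06 untreated and 5.52 in dox 2. Both were well below the EVI1 values at the strongest shared site, that at 1946.6 kb, with 45.3 and 45.5 untreated. Some shared sites were weaker than both, with untreated EVI1 at 4.47 and 3.94 at 1991.0 kb and at 4.75 and 3.79 at 2152.8 kb. Whether sites with EVI1 alone were weaker than shared sites as a group was not tested.

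CTBP2 in MOLM1 shared most of the MUTZ3 CTBP2 sites of both windows and had sites of its own. The MOLM1 list, of 64569 peaks, had 28 peaks around MYB and 113 around MYC, against 9 and 18, and 46 and 62, in the untreated inducible libraries with 62232 and 56526 peaks. It has no replicate, so no test was made. All 8 MUTZ3 CTBP2 sites around MYB had a MOLM1 peak, as had 24 of 30 around MYC (80.0%, 62.7 to 90.5%), against 61.9% over the genome. Of the 26 MYC sites called in 9 or more lists, 21 were in MOLM1, and those 76.9, 140.3, 285.7, 414.7 and 1991.0 kb downstream were not. In the other direction, 16 of 28 MOLM1 peaks around MYB (57.1%, 39.1 to 73.5%) and 55 of 113 around MYC (48.7%, 39.7 to 57.8%) had a peak in an untreated CTBP2 library, against 60.9%. Both MYC intervals, which cover counting error only, exclude the genome's share, as does that of the 8 MYB sites (67.6 to 100%). The interval of the MOLM1 peaks around MYB includes it. Without CTBP2 untreated 1 the share of MUTZ3 sites with a MOLM1 peak was 72.2% around MYB and 58.1% around MYC. The genome's share under that definition is not given here. Of the unmodified MUTZ3 CTBP2 peaks around MYB, 60.0% had a MOLM1 peak, against 70.2% over the genome. With any MUTZ3 list counted, the shares were 19 of 28 (67.9%) and 74 of 113 (65.5%), against 68.9%.

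Sites in MOLM1 alone were found in most segments of the MYC window. In PVT1, 28 of 57 sites had a MOLM1 peak and 13 were in MOLM1 alone. Between the end of PVT1 and 1.5 Mb past the MYC start, 36 of 47 sites had a MOLM1 peak and 20 were in MOLM1 alone, while in the 1.5 to 2 Mb stretch 16 of 37 had one and 2 were in MOLM1 alone. Its strongest peak of the window lay 532.3 kb downstream at 25.7, rank 1145 of its list, where the CTBP2 untreated libraries read 9.77 and 6.36. At 495.8 kb it read 23.2. At 1946.6 kb, the strongest MUTZ3 site, it read 6.94. Sites in MOLM1 alone numbered 39 around MYC, led by those 155.2 kb (PVT1 exon, 15.5), 862.4 kb (intergenic, 12.9) and 1052.3 kb (CCDC26 intron, 12.2) downstream, and 9 around MYB, led by those 10.2 kb (10.3) and 13.9 kb (9.49) downstream in MYB introns and 21.6 kb upstream (6.40).

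MOLM1 peaks with a peak in some MUTZ3 list had a median fold enrichment of 7.10 around MYB and 6.84 around MYC, and those without one 5.23 and 5.94, against 7.02 and 6.08 over the genome. Chromosome 8 carried 5.82% of the MOLM1 list and 3.45 to 4.38% of the others. The part of that difference in the MOLM1 count around MYC was not tested. Cell line, crosslinking and the clone cannot be told apart here.

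The promoters of 23 genes related to MYB and MYC were compared with those of all genes. Of these, 4 were neighbours by position (HBS1L, AHI1, PVT1 and GSDMC), whose promoter peaks include sites of the windows, and PVT1 is noncoding. Among the 4 neighbours, CTBP2 was in both untreated libraries at 3, in both dox libraries at 2 and lost at 0. CTBP2 was called within 1 kb of a start in both untreated libraries at 18 of them (78.3%), against 59.8% of 20149 protein-coding genes, and EVI1 at 22 (95.7%, against 62.9%). With dox, CTBP2 was in both libraries at 6 of the 18, against 6076 of 12059 over all genes, and in neither at 5 (27.8%, against 25.4%), while EVI1 was in both at 21 and lost at 0, against 1.68%. Of the 8 dimer partners and antagonists around MAX with CTBP2, 4 had no dox peak: MXD3, MXD4 and MGA, which oppose MYC at E-boxes, and MLX, the partner of the glucose-sensing MLXIP and MLXIPL. With so few genes this was not tested against the share over all genes. MXD3 read 6.90 and 3.57 before dox and MGA 11.6 and 7.34, while EVI1 at MGA stayed at 9.28 and 9.82 untreated and 6.53 and 4.62 with dox. MXI1 and MNT, repressors that also pair with MAX, kept CTBP2 in both dox libraries, at 13.9 and 9.67 against 6.02 and 6.76, and at 11.6 and 8.70 against 4.66 and 4.60. MAX itself had CTBP2 at 18.6 and 8.87 untreated and at 2.83 in dox 1 alone.

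Among the family members, MYCN, which acts in place of MYC in other tissues, had the highest CTBP2 values of the list, 41.0 and 31.6 untreated against 5.65 in dox 1 and no peak in dox 2, while EVI1 read 17.2 and 40.1 against 33.9 and 21.8. MYBL1, a relative of MYB, kept CTBP2 at 13.7 and 8.56 against 7.98 and 5.79. Of the coactivators, EP300, an acetyltransferase bound by MYB, kept CTBP2 at 19.4 and 11.5 against 5.57 and 4.45. CREBBP, the close relative of EP300, had 7.65 and 4.74 and no dox peak. MYCL read 18.3 and 6.77 untreated and 4.01 in dox 1, with no peak in dox 2.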

How the data were processed

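ChIP-seq libraries of EVI1 and CTBP2 were compared as lists of peaks. Per the labels and the study's methods, the authors aligned reads to hg19 with Bowtie (version 1.1.1 in the submitters' processing notes) and ran MACS2 (2.1.2) separately on every library, with a matched input. A single input per treatment served both factors of the inducible experiment. The deposited columns used were the fold enrichment (a ratio over input at the summit) and the -log10 p-value and q-value. The deposited score, a multiple of the q-value, was not used, nor were samples of the series without a peak list here. The files give no read counts, so no interval for depth can be set and a count model could not be used. CTBP2 of MOLM1 and 4× PLASS cells is labelled as double crosslinked, while the study's supplement gives a single crosslink.

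Peaks were assigned by summit, and overlap was 1 bp or more. Sites of a group were intervals called in both of its libraries, gene positions came from GENCODE release 44 lifted to GRCh37, and a promoter reached 1 kb from any start. Named sites were those within 1 kb of the MYB or MYC start, the 6 called in most lists, the 3 CTBP2 sites lost with dox that ranked first by their value in CTBP2 untreated 1, the 3 strongest in MOLM1 alone and the strongest EVI1 site without CTBP2. Sites outside this rule (such as those at 285.7, 515.9 and 1800.4 kb) were named after their values were seen. The members, gene lists and motifs were chosen with earlier results of these data known. Groups of 2 libraries were compared by exact permutation tests in Python 3.11.15 with scipy 1.17.1. The steps passed 7 of 7 tests on simulated data of 5000 sites, and an overlap count was checked with bedtools 2.31.1. Alternatives varied peak strength, overlap rule, list size, window, site definition and libraries. Replicate numbers did not pair the libraries: over 13268 shared sites the replicate differences of untreated and dox libraries correlated at 0.20 for CTBP2 and -0.34 for EVI1.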

Additional observations from a re-analysis of the deposited data

How the results depend on the processing

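Of 218 alternative values for 26 results, 167 counted as the same, 43 as moved and 8 changed sign, and the cause was not tested for any. Log2 ratios were judged by sign, with 0.00 counted as moved, and kept shares and ranks by the SD between libraries. Where both dox libraries gave the same kept share, any change counted as moved. Overlap shares and shares lower with dox were judged by the Wilson interval, for counting error only, and numbers of merged sites by a fixed ratio. With lists of equal size the log2 ratio of CTBP2 peak number became 0.39 around MYB and 0.28 around MYC, that of EVI1 around MYC 0.13, and the differences between the factors 0.26 and 0.28. Kept shares of CTBP2 were then 100% and 91.2%, and that of EVI1 around MYB 92.9%. The EVI1 ratio around MYB was -0.07 with -log10 q of at least 5, -0.08 with fold enrichment of at least 5 and 0.00 in the narrow window, and the EVI1 share kept there was 91.7, 90.0 and 83.3%. Around MYC the CTBP2 share kept was 53.6, 47.6 and 60.7% in the same order, and the EVI1 share 77.1% at fold enrichment of at least 5. Counting sites of either untreated library gave kept shares of 44.4% (CTBP2) and 62.5% (EVI1) around MYB, and 33.3% and 47.7% around MYC. It gave CTBP2 sites with EVI1 of 66.7% and 62.7%, and MUTZ3 sites with MOLM1 around MYC of 54.7%. CTBP2 sites around MYC with EVI1 were 63.3% against the unmodified EVI1 list, and the unmodified CTBP2 list had MOLM1 at 60.0% around MYB. MOLM1 peaks around MYC had a MUTZ3 summit within 200 bp in 37.2%. A fold enrichment of at least 5 left 25 MYB and 111 MYC sites. No genome share under these alternatives is given in this section, so each value compares only with the main value of its own window.

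Leaving out 1 library at a time gave log2 ratios of CTBP2 number from -1.08 to -0.08 (MYB) and -0.98 to -0.55 (MYC), and of EVI1 number from -0.15 to 0.30 and -0.37 to -0.01. The differences between factors ran from -1.14 to -0.14 and -0.78 to -0.35. Kept shares ran from 44.4 to 87.5% and 40.3 to 63.3% for CTBP2, and 72.7 to 87.5% and 47.1 to 91.2% for EVI1. Shares lower with dox, under the looser rule that 1 fewer library gives, ran from 40.0 to 66.7% and 68.4 to 81.0% for CTBP2. For EVI1 they ran from 28.6 to 57.1% and 38.9 to 69.0%. CTBP2 sites with EVI1 ran from 55.6 to 100% and 48.4 to 93.3%, MUTZ3 sites with MOLM1 from 72.2 to 88.9% and 58.1 to 65.2%, and MOLM1 peaks with MUTZ3 from 39.3 to 57.1% and 37.2 to 43.4%.

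With the replicate number as a block, the log2 ratios were -0.58 (CTBP2) and 0.07 (EVI1) around MYB and -0.76 and -0.20 around MYC, their differences -0.66 and -0.56, and the kept shares 61.1 and 76.4% around MYB and 41.6 and 59.6% around MYC. Crossing the EVI1 pairing, chosen after seeing the data as were all alternatives for the factor differences and the lower shares, gave kept shares of 69.7% and 61.6%.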
